A study of Rattus norvegicus with 36 samples.

Results

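The striatal transcriptome of transgenic BACHD rats that had been separated from their mothers as pups (TG_MS) was compared with that of transgenic rats raised in the standard environment (TG_SE). The comparison set 12 of the 36 libraries of the study against each other, 6 from each group, all from male rats aged 2 months. The model behind the main p-values and intervals was fitted to all 36 libraries, which shared its estimate of the spread. Members were chosen by their labels alone, as libraries of genotype TG and of the environment written as ELS or SE. The other 24 libraries came from wildtype rats of the same environments (WT_SE and WT_MS, 6 each) and from the enriched environment (TG_EE and WT_EE, 6 each). BACHD rats carry human mutant huntingtin in full length, on a bacterial artificial chromosome and under its own regulatory elements, and were bred on a Sprague Dawley background as carriers of the transgene and wildtype siblings. MS pups were taken from their mothers daily for some hours over the first weeks after birth and were housed from then on like the SE rats, in standard cages of littermates of the same sex. Whole litters were assigned to an environment, and the labels do not give the litter of each library. P-values below therefore measure the spread between the sequenced animals, and litter and environment cannot be told apart.

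The striatum is the part of the basal ganglia that loses most neurons in Huntington disease, and most of its neurons are medium spiny projection neurons of the direct and the indirect pathway. Mutant huntingtin disturbs transcription in these cells before they die. Separating rodent pups from the dam is a model of early life stress that is known for lasting effects on the stress hormone axis, with glucocorticoid release and its feedback through steroid receptors in the brain as the best studied part. The comparison asks whether a trace of that early stress is found in the striatal RNA of young adult rats that carry the mutation.

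The data were raw counts per Ensembl gene from poly(A)-selected RNA of dissected striatum. Total counts were 12242477 to 13533392 in the TG_MS libraries and 10785669 to 13423957 in the TG_SE libraries. TG_MS exceeded TG_SE in total count in 4 of 6 runs and in the number of genes with a count in 5 of 6 runs, with exact two-sided permutation p-values within runs of 0.188 and 0.125 (both 0.281 after adjustment over 3 such measures), where 0.0313 is the smallest p that 6 runs allow. A run is a set of 6 consecutive library numbers, and each of the 6 runs held 1 library of every group. The labels do not say what the numbers mark, and the runs entered the model as blocks. In bulk tissue, fewer cells of a type and less RNA per cell cannot be told apart. The count table names genes by Ensembl identifier and the identifiers were not paired with gene symbols here, so marker genes of striatal cell types and genes of the stress axis were not analysed here, and single genes are given by identifier or by their level.

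Genotype labels were checked with the gene whose level differed most between TG and WT rats of the enriched environment, which lies outside the comparison of interest. All 18 TG libraries lay above all WT libraries for this gene, at 34.4 to 90.6 CPM, counts scaled to a common library size, against 4.14 to 6.67 CPM. The EE libraries chose this gene, so their separation was set by the choice, and only the SE and MS libraries test the labels. In the SE and MS libraries it had 34.4 to 81.1 CPM in TG rats and 4.14 to 6.67 CPM in WT rats. Its level was 56.0 to 73.5 CPM in TG_MS (median 62.8) and 34.4 to 81.1 CPM in TG_SE (median 54.7), so the groups overlapped, with a log2 fold change of 0.19 (SE 0.13, edgeR quasi-likelihood adjusted p = 0.556).

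No gene differed between TG_MS and TG_SE past both thresholds of the study, which are 0.1 for the adjusted p and 0.3 in either direction for the log2 fold change (0 of 12657 genes tested, 0%). The smallest adjusted p by the edgeR quasi-likelihood test was 0.286, shared by 9 genes. Without adjustment, 1536 genes (12.1%) had a p under 0.05, of which 771 (6.09%) were higher and 765 (6.04%) lower in TG_MS, where evenly spread p-values would give 633. limma-voom with the same terms called 0 genes and gave 1490 genes at an unadjusted p under 0.05. DESeq2 with the same terms called 6 genes (0.0474%), 2 higher and 4 lower, after its automatic filter had left 6626 genes without an adjusted p. With DESeq2 p-values adjusted over all genes tested, 3 genes were called. With 5 surrogate variables in place of the runs, the kind of correction the study used, edgeR called 0 genes and 523 genes (4.13%) had an unadjusted p under 0.05, fewer than evenly spread p-values would give.

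**Figure D1:**
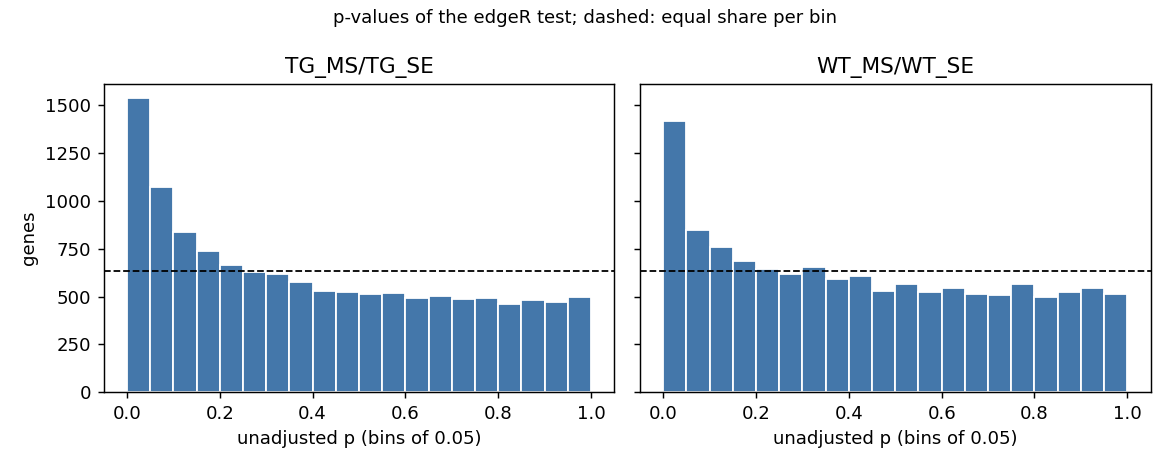
Number of genes (vertical axis) in each bin of 0.05 of unadjusted p (horizontal axis) for the MS against SE comparison in TG rats (left) and WT rats (right), with the dashed line at an equal share of the 12657 genes per bin. The first bin held 1536 genes in TG rats and 1415 in WT rats, and the bins from 0.4 upwards lay below the line in both.

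The differences were small. The median absolute log2 fold change over all genes was 0.07 and the median standard error 0.08, and the 1536 genes with an unadjusted p under 0.05 lay at a median of 0.19 on the same scale. A log2 fold change of 0.3 or more in either direction was measured for 351 genes, 238 higher and 113 lower in TG_MS, and 203 of these had an unadjusted p under 0.05. The 95% interval of the log2 fold change lay within 0.3 in either direction for 8203 genes (64.8%), within 0.5 for 11671 genes (92.2%) and within 1 for 12568 genes (99.3%). The intervals are not adjusted for the number of genes.

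Precision followed gene level. Among 4168 genes with a mean count of 50 to 200, the interval lay within 0.3 for 34.5%, and 8.18% had an unadjusted p under 0.05. Among 6052 genes with a mean count of 200 to 1000 these shares were 77.2% and 13.1%, and among 2437 genes with a mean count of 1000 or more they were 85.9% and 16.5%. Genes with an unadjusted p under 0.05 were more often higher than lower in TG_MS in the lowest class (205 against 136) and more often lower in the highest class (168 against 233).

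**Figure D2:**
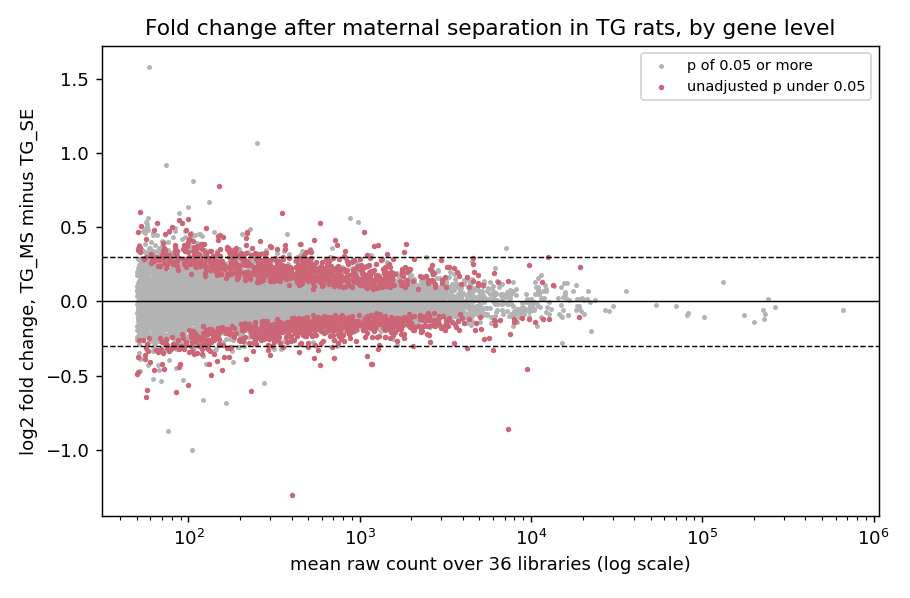
Log2 fold change of TG_MS against TG_SE (vertical axis) against the mean raw count over the 36 libraries (horizontal axis, log scale) for each of the 12657 genes tested, with red points for an unadjusted p under 0.05 and dashed lines at 0.3 in either direction. Genes beyond 0.5 in either direction number 38 and have a median mean count of 92.6, against 349 for all genes.

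Library by library, the genes closest to the thresholds looked as follows. They were chosen by a rule on their measured difference, as the pair in each direction with the smallest unadjusted p among genes past 0.3 on the log2 scale, so their values describe the data and carry no call. ENSRNOG00000005850 had 43.4, 52.8, 50.3, 43.7, 57.2 and 51.2 CPM in the TG_MS libraries of runs 1 to 6. In TG_SE it had 63.2, 66.1, 57.3, 66.2, 74.8 and 61.6 CPM in the same order. The groups did not overlap but nearly met, at 57.2 CPM in the highest TG_MS library and 57.3 CPM in the lowest TG_SE library, and TG_MS was lower in every run. The log2 fold change was -0.38 (SE 0.08, edgeR adjusted p = 0.286), a level lower by 23.1%.

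ENSRNOG00000052775 had 32.5, 34.3, 33.6, 34.2, 42.7 and 34.7 CPM in TG_MS and 41.5, 39.5, 38.8, 44.5, 57.6 and 41.7 CPM in TG_SE, in the same order of runs. TG_MS was lower in every run, but the TG_MS library of run 5 lay above 4 of the 6 TG_SE libraries, so the groups overlapped. In both groups the library of run 5 was the highest by a wide margin. The log2 fold change was -0.31 (SE 0.07, edgeR adjusted p = 0.286), and with 5 surrogate variables it was -0.18.

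ENSRNOG00000012658 was a weakly expressed gene, with 10.8, 9.21, 7.58, 11.6, 7.91 and 7.74 CPM in TG_MS. It had 6.37, 6.97, 5.77, 7.44, 4.26 and 6.82 CPM in TG_SE. The groups did not overlap, with the lowest TG_MS library at 7.58 CPM and the highest TG_SE library at 7.44 CPM, and raw counts ran from 56 to 150. TG_MS exceeded TG_SE by 0.55 on the log2 scale (SE 0.13, edgeR adjusted p = 0.286).

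ENSRNOG00000014658 had 17.2, 18.5, 21.2, 19.1, 20.6 and 21.7 CPM in TG_MS and 13.9, 12.3, 14.5, 15.4, 17.9 and 18.5 CPM in TG_SE. TG_MS was higher in every run and the groups overlapped. The log2 fold change was 0.36 (SE 0.09, edgeR adjusted p = 0.322), and with 5 surrogate variables it was 0.21. In WT rats the difference of this gene had the other sign, at -0.15 (SE 0.09), and the interaction of MS with genotype was 0.51 with an edgeR adjusted p of 0.625. The other named genes had the same sign in WT as in TG rats. Their WT log2 fold changes were -0.16 (SE 0.08) for ENSRNOG00000005850, -0.10 (SE 0.07) for ENSRNOG00000052775 and 0.26 (SE 0.13) for ENSRNOG00000012658. Their edgeR adjusted p-values of the interaction were 0.701 to 0.825.

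**Figure D3:**
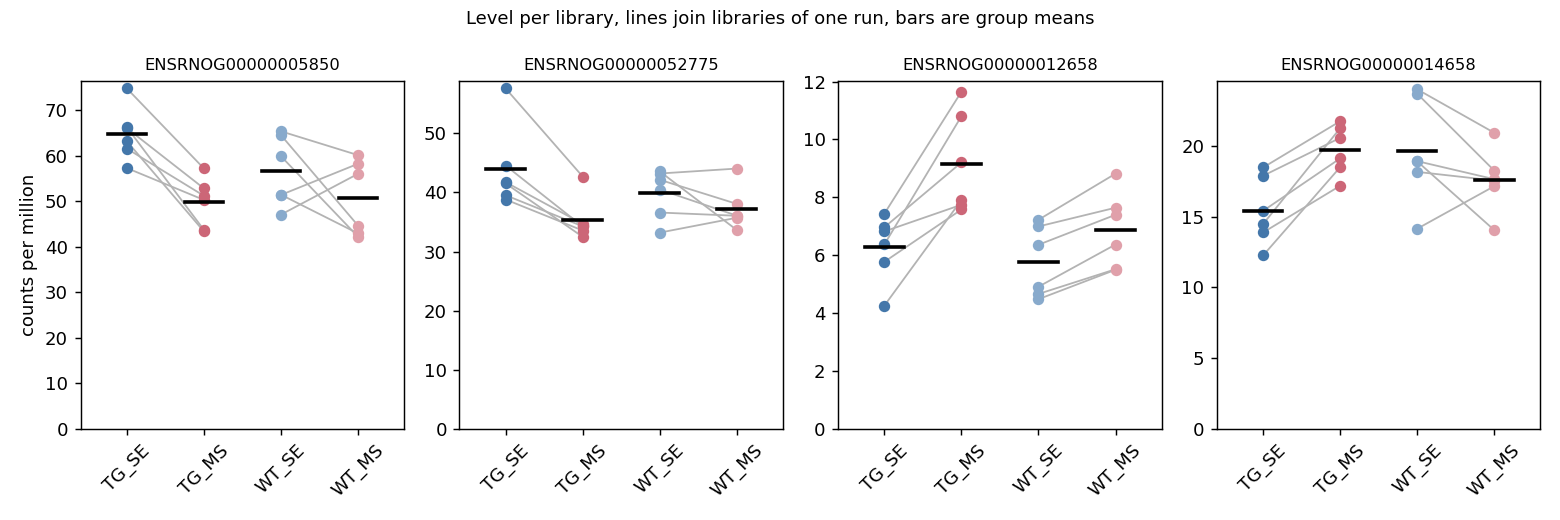
CPM (vertical axis, from 0) of the named genes in each library of TG_SE, TG_MS, WT_SE and WT_MS, with 6 points per group, grey lines joining the libraries of a run and black bars at the group means. In TG rats all 6 lines fall for ENSRNOG00000005850 and ENSRNOG00000052775 and all 6 rise for ENSRNOG00000012658 and ENSRNOG00000014658, at edgeR adjusted p-values of 0.286 to 0.322.

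Of the 6 genes that DESeq2 called with runs, ENSRNOG00000005850 (DESeq2 adjusted p = 0.0354) and ENSRNOG00000052775 (DESeq2 adjusted p = 0.0377) were 2, and edgeR gave all 6 adjusted p-values of 0.286 to 0.322. The most abundant of the 6 averaged 430.4 CPM in TG_MS (range 379.8 to 487.9) and 542.4 CPM in TG_SE (range 494.0 to 726.9). Its groups did not overlap and TG_MS was lower in every run, with an edgeR log2 fold change of -0.33 (SE 0.07). In WT rats the same gene differed by 0.00 on the log2 scale (SE 0.07), and the interaction had an unadjusted p of 0.00453 and an edgeR adjusted p of 0.625. The rest of the 6 had the same sign in WT as in TG rats, with WT log2 fold changes of -0.16 to 0.10. Their edgeR unadjusted p-values of the interaction were 0.0165 to 0.0629. These genes were chosen by their difference in TG rats, which favours a small p of the interaction. Another gene, higher in TG_MS in every run, averaged 107.4 CPM in TG_MS (range 93.7 to 121.6) and 82.4 CPM in TG_SE (range 66.6 to 94.6), with an edgeR log2 fold change of 0.38 (SE 0.10).

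The largest measured differences were of mixed steadiness. Of the 38 genes that differed by 0.5 or more on the log2 scale, 17 had an unadjusted p under 0.05 (12.1% of all genes), 2 had groups without overlap (0.34% of all genes) and 6 had the same direction in all 6 runs (7.73% of all genes). They were chosen by the size of the same difference, so these counts are a description. For 17 of them the mean difference over runs fell by over 1.5 times when the run that weighed most toward it was left out. No share over all genes was taken for this count. Of the genes tested, 4 reached a log2 fold change of 1 in either direction, with edgeR unadjusted p-values of 0.0337 to 0.630.

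The largest fold with an unadjusted p under 0.05 belonged to a gene with 13.3 to 24.8 CPM in TG_MS. Its TG_SE libraries had 78.1, 24.9, 9.57, 61.1, 78.2 and 32.1 CPM in runs 1 to 6, so among TG rats compared here the spread lay in TG_SE (log2 fold change -1.31, SE 0.59, edgeR adjusted p = 0.379). WT libraries also spread widely for this gene, at 5.92 to 100.8 CPM in WT_MS and 16.3 to 55.4 CPM in WT_SE. An abundant gene with a mean count of 7317 had 223 to 629 CPM in TG_MS and 366 to 1649 CPM in TG_SE, and its TG_SE library of run 5 stood far above the rest (log2 fold change -0.86, SE 0.33, edgeR adjusted p = 0.351). A gene with a mean count of 352 was tighter. It had 39.3, 29.1, 37.7, 28.04, 31.3 and 36.4 CPM in TG_MS and 28.8, 19.4, 19.4, 25.5, 22.7 and 18.2 CPM in TG_SE, an overlap of a single library, with a log2 fold change of 0.59 (SE 0.16, edgeR adjusted p = 0.322).

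Groups without overlap between the 6 TG_MS and the 6 TG_SE libraries were found for 43 genes (0.34%), 20 with TG_MS higher and 23 with TG_MS lower. Their absolute log2 fold changes ran from 0.11 to 0.56 and 11 reached 0.3. In WT rats 46 genes (0.363%) had groups without overlap for the same treatment, and 0 genes were without overlap in both genotypes in the same direction. A direction shared by all 6 runs was found for 979 genes (7.73%) in TG rats, with 453 higher and 526 lower, and 648 of these had an unadjusted p under 0.05.

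The differences did not repeat strongly from run to run. The difference between the TG_MS and the TG_SE library was taken within each run for every gene and correlated across genes between runs. Over the 15 pairs of runs, Pearson's r had a median of 0.07 and ran from -0.14 to 0.33. The 4 pairs above 0.2 were runs 1 and 2 and the 3 pairs among runs 2, 3 and 4. The 3 pairs below 0 all included run 6. Genes within a library share its depth and its tissue piece and are not independent, so these values describe the libraries and carry no p. In WT rats the same pairs had a median of 0.12 and ran from -0.02 to 0.62, with the highest values among runs 2, 5 and 6.

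**Figure D4:**
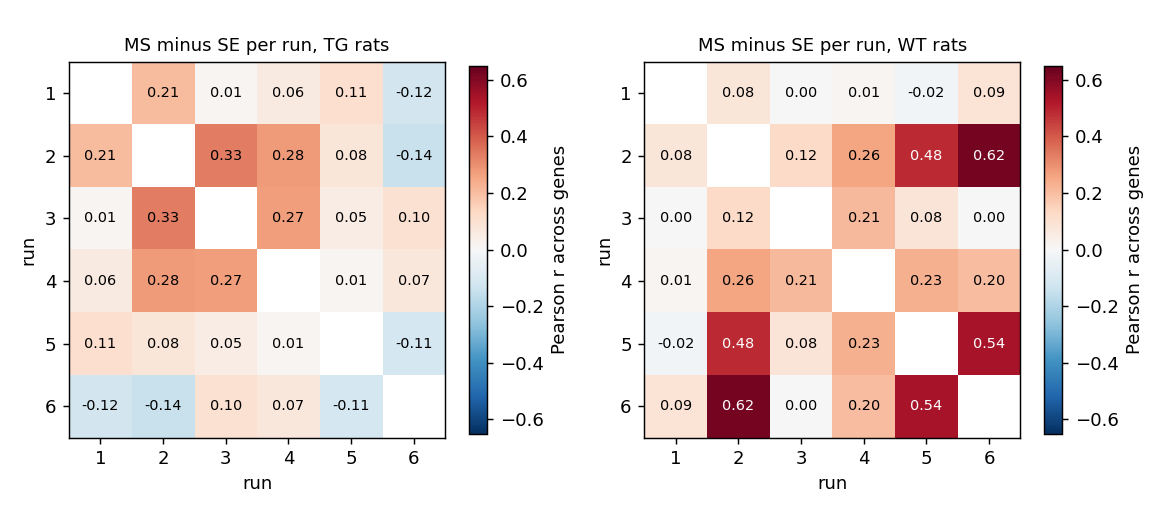
Pearson correlation across 12657 genes of the log2 difference MS minus SE between each pair of runs, for TG rats (left) and WT rats (right), with runs on both axes and r printed in each cell and shown in colour. In TG rats the values run from -0.14 to 0.33, with the highest among runs 2, 3 and 4, and run 6 is negative with runs 1, 2 and 5.

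The count of genes with an unadjusted p under 0.05 depended on single libraries. It was 1536 with all libraries and fell to 855 without TG_SE replicate 2 (run 2) and to 1017 without TG_MS replicate 3 (run 3). It fell to 984, 808 and 1009 when the whole of run 2, 3 or 4 was left out, and it was 2132 without TG_SE replicate 6. The count of genes called was 0 in each of these fits. The smallest edgeR adjusted p was 0.102 without TG_SE replicate 6, just above the threshold of 0.1, and 0.733 without TG_SE replicate 2.

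Most of the genes with an unadjusted p under 0.05 had TG_SE, more often than TG_MS, as the group apart. Among the 771 genes higher in TG_MS, TG_SE had the lowest mean of all 6 groups for 681 (88.3%) and TG_MS the highest for 373 (48.4%). Among the 765 lower genes, TG_SE had the highest mean for 630 (82.4%) and TG_MS the lowest for 401 (52.4%). Over all genes tested, TG_SE was lowest for 22.9% and highest for 22.2%, and TG_MS was highest for 14.6% and lowest for 14.6%. These genes were chosen by a contrast of the same libraries, which raises the shares of both groups, so the shares are a description. The comparison of TG_EE with TG_SE, which uses the same TG_SE libraries, also had 0 genes called (smallest edgeR adjusted p = 0.237) and 1543 genes at an unadjusted p under 0.05. The paper, which used DESeq2 and surrogate variables, reports several genes higher in TG_EE at the same thresholds, so the counts differ. In TG_EE/TG_SE the 771 genes had a median log2 fold change of 0.16 and the 765 genes one of -0.11, values that share their reference animals with TG_MS/TG_SE.

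In wildtype rats, which share no animals with the transgenic groups, edgeR called 50 genes (0.395%) in WT_MS/WT_SE, 1 higher and 49 lower, and 1415 genes (11.2%) had an unadjusted p under 0.05, 568 (4.49%) higher and 847 (6.69%) lower. Of the 50 called genes, 46 had their highest WT_SE level in WT_SE replicate 6, at a median of 3.54 times the median of the other WT_SE libraries, and without that library 3 genes were called. In WT_MS/WT_SE edgeR called 0 genes without the run terms, with 5 or 2 surrogate variables, or when run 2, 5 or 6 was left out. limma-voom with the run terms also called 0 genes there. DESeq2 called 102 genes with the run terms and 60 without them. The paper reports no gene in WT_MS/WT_SE at the same thresholds. In TG rats the 50 genes were higher in TG_MS for 29 and lower for 21, with a median log2 fold change of 0.03, and 1 had an unadjusted p under 0.05, against 12.1% of all genes.

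Whether the difference after MS differed between the genotypes was tested with the interaction term. No gene was called in the interaction (0 of 12657, 0%; smallest edgeR adjusted p = 0.625), and 872 genes (6.89%) had an unadjusted p under 0.05. No difference is therefore called particular to transgenic rats. The median standard error of the interaction was 0.12 on the log2 scale, above the 0.08 of the difference within TG rats.

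The direction of small differences was shared more often than not. Of the 771 genes higher in TG_MS at an unadjusted p under 0.05, 600 (77.8%) were also higher in WT_MS than in WT_SE, and of the 765 lower genes, 528 (69.0%) were also lower, against 60.4% of all genes with the same sign in both genotypes. The WT differences of these genes were small, with medians of 0.06 and -0.03 beside medians of 0.22 and -0.17 in TG rats. In WT rats 68 of the higher genes were at an unadjusted p under 0.05 in the same direction and 14 in the opposite one, and for the lower genes the numbers were 65 and 6. Without WT_SE replicate 6 the shares were 75.7% and 65.2%, against 59.6% of all genes. Over all genes Spearman's rho between the log2 fold changes of the genotypes was 0.24 and Pearson's r was 0.02.

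The animals were separate but their libraries were not placed independently. WT and TG libraries of an environment always had adjacent numbers, in 12 adjacent pairs. Their deviations from the group means correlated across genes with a median r of 0.16 in MS and 0.12 in SE, against -0.07 and -0.06 for pairs of libraries that were not adjacent. Adjacent pairs always lay in the same run and the other pairs in different runs, so adjacency and run cannot be told apart here. TG_MS and TG_SE libraries of a run, which were never adjacent, correlated with a median r of 0.23. The MS minus SE difference within a run correlated between TG and WT rats with a median r of 0.06 (-0.10 to 0.19). What adjacent numbers share is not in the labels, and its part in the shared direction was not tested.

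**Figure D5:**
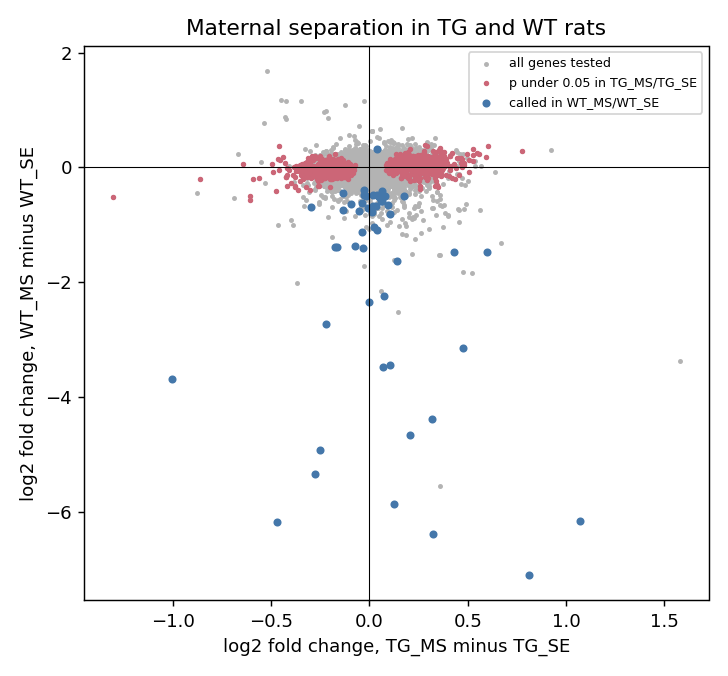
Log2 fold change of MS against SE in TG rats (horizontal axis) and in WT rats (vertical axis) for each of the 12657 genes tested, with red points for an unadjusted p under 0.05 in TG rats and blue points for the 50 genes called in WT rats. Most genes called in WT rats lie far below 0 on the vertical axis and close to 0 on the horizontal axis, where their median is 0.03.

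Genes that differed between TG and WT rats were taken from the enriched environment, a choice made after the data were seen. The libraries of that environment do not enter the TG_MS and TG_SE means, but they share the model's estimate of the spread. TG_EE/WT_EE called 46 genes (0.363%), 21 higher and 25 lower in TG rats, and the size of that difference had a median of 0.45 on the log2 scale. After MS, 20 of the 46 lay in the direction of their TG_EE/WT_EE difference and the median difference in that direction was -0.02. An unadjusted p under 0.05 was found for 7 of the 46 (15.2%, against 12.1% of all genes), and 0 of the 7 lay in the direction of their TG_EE/WT_EE difference. That direction did not hold in every environment. For 1 of the 7 the log2 difference between TG and WT rats was -0.57 in EE but 0.20 in SE and 0.12 in MS, and TG_MS exceeded TG_SE by 0.29 on the log2 scale (SE 0.14, edgeR adjusted p = 0.403). For another the difference between TG and WT rats was -0.36 in EE, -0.08 in SE and 0.09 in MS. For the gene of the 7 with the largest MS difference it was 0.73 in EE, 0.38 in SE and -0.01 in MS. The remaining genes of the 7 kept their sign in every environment. The smallest edgeR adjusted p among the 46 was 0.322.

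The 7 genes show how these values look. The gene with the largest MS difference among them averaged 9.70 ± 0.996 CPM in TG_SE and 7.46 ± 0.692 CPM in WT_SE (SD, n = 6 each). After MS it averaged 6.62 ± 1.32 CPM in TG rats and 6.66 ± 1.66 CPM in WT rats. Its level ran from 4.97 to 8.47 CPM in TG_MS and from 8.60 to 11.1 CPM in TG_SE, without overlap (log2 fold change -0.56, SE 0.15, edgeR adjusted p = 0.322, interaction adjusted p = 0.761).

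A more abundant gene of the 7 averaged 231.6 ± 13.5 CPM in TG_SE and 176.2 ± 19.6 CPM in WT_SE. After MS it averaged 198.6 ± 16.1 CPM in TG rats and 185.1 ± 25.7 CPM in WT rats (log2 fold change in TG rats -0.22, SE 0.07, edgeR adjusted p = 0.334, interaction adjusted p = 0.625). Its TG libraries ran from 181.5 to 224.0 CPM in MS and from 209.5 to 249.1 CPM in SE and overlapped. For both genes TG_SE was the highest of these 4 groups, and the difference between TG and WT was smaller in MS, without passing the test of that change.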

How the data were processed

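Striatal RNA of 36 male rats aged 2 months was sequenced, 6 in each of 6 groups of genotype and environment. Per the labels, quality was checked with FastQC 0.11.4, reads were aligned with STAR 2.5.2b and expression was analysed with DESeq2 1.16.1. The study's methods name an Ensembl rat genome extended by the human transgene, and the program that counted reads is not given in the sources used here. The authors deposited raw counts per Ensembl gene, which were checked to be whole numbers. No other unit was used.

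Groups came from the genotype and environment labels. Tests covered 12657 of 23965 genes, those whose raw counts averaged 50 or more over the 36 libraries. They held 99.2% to 99.3% of the counts of each TG library. The edgeR 4.0.16 quasi-likelihood model (R 4.3.3, TMM normalization) held 1 mean per group and terms for 6 runs of 6 consecutive library numbers. The study used surrogate variables, which were fitted as an alternative with sva 3.50.0, where the permutation procedure with seed 1 gave 5 and the asymptotic procedure 0. A gene was called where its adjusted p (Benjamini-Hochberg) did not exceed 0.1 and its log2 fold change reached 0.3 in either direction. CPM are scaled by TMM factors, and intervals are 95% intervals from the same fit. Within a run, deviations of TG_MS and TG_SE libraries from their group means correlated across genes with a median r of 0.23 (-0.05 to 0.38), against -0.01 between runs. Libraries of a group differed by far more than sampling noise, with 5.64 to 21.3 chi-square per degree of freedom, so none was counted as a duplicate.

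Alternatives were 5 or 2 surrogate variables, no run terms, library number as a linear term, only the groups compared, DESeq2 1.42.0, limma-voom (limma 3.58.1), other scalings, filters and thresholds, and libraries or runs left out. The script was tested on simulated counts with changed genes. Named genes were to be those with the smallest unadjusted p in each direction among genes with a symbol. Since identifiers could not be paired with symbols, 4 genes are given by identifier. Gene lists, cell type markers, like patterns and promoter motifs were not analysed here. The comparison, the runs, the lists and the rules were chosen with earlier results of these data known.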

Additional observations from a re-analysis of the deposited data

Results flagged for a closer look

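For ENSRNOG00000052775 a single library stood apart from the other 5 in both transgenic groups. TG_MS replicate 5 had 42.7 CPM where the other TG_MS libraries had 34.7 CPM or less, and TG_SE replicate 5 had 57.6 CPM where the others had 44.5 CPM or less. Both are the libraries of run 5. In all, 14 sets of 6 values were examined, for the named genes and for library totals, genes detected and the share of counts in the top 50 genes, and chance sets apart about 1 value in 20 such sets.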

How the results depend on the processing

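In TG_MS/TG_SE, 0 genes were called in every alternative run but DESeq2 with runs, which called 6. Genes at an unadjusted p under 0.05 numbered 1171 without the replicate block of runs, 523 with 5 surrogate variables and 1790 with 2. They numbered 1934 with only the groups compared, and 808 to 2132 when a library or a run was left out. Of the 1536 genes, 278 (18.1%) were also among the 523, and 1499 had the same direction in that fit. The cause of these shifts was not tested. In WT_MS/WT_SE, in place of 50 calls, there were 0 without the replicate block, with 5 or 2 surrogate variables and with limma-voom, 23 with library number, 24 with only the groups compared, 102 with DESeq2 and runs, 118 with library totals, 85 with a minimum mean count of 10, 158 without a filter, 11 with at least 50 counts in every library, 17 at an adjusted p of at most 0.05, 3 without WT_SE replicate 6 (chosen after seeing the data) and 0 to 107 when a TG library or a run was left out. The WT_MS/WT_SE count was 94 without TG_SE replicate 6, 107 without run 1 and 0 without run 2, 5 or 6. Without the replicate block DESeq2 called 60 genes there, where edgeR called 0. The interaction had 0 calls except for 1 with DESeq2 without runs. The log2 fold changes of the 4 named genes kept their sign in 33 alternatives, and with runs DESeq2 called ENSRNOG00000005850 and ENSRNOG00000052775. These 4 genes were chosen by their small p and had the same direction in every run, so the kept sign was largely set by the choice. The alternatives also include changes of threshold, which leave the fold change as it was. Alternatives on gene list medians were not run, since identifiers could not be paired with symbols. At this depth, genes with a mean count under 200 had a median standard error of 0.12 on the log2 scale.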
